A study of Arabidopsis thaliana with 11 samples.

Results

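Cysteine-rich receptor-like kinases (CRKs) were followed in whole seedlings of Arabidopsis thaliana carrying mutations in XPO4 and CPR5. The family was taken as 40 loci listed by their Arabidopsis gene codes, and 38 of them were found among the 22160 genes of the deposited count table. CRK1 and CRK33 were not in that table and were listed at 0 TPM, a level relative to transcript length and library total, in every library, so no further value is given for them. All 38 measured members passed the filter on low counts and were tested, among 21580 genes in all. CRKs are plasma membrane proteins with an extracellular part of repeated DUF26 domains, named for a conserved spacing of cysteines, a membrane-spanning stretch and a cytoplasmic kinase. Many CRK genes respond to salicylic acid (SA), pathogens and reactive oxygen, and several of the proteins act together with immune receptors or with the NADPH oxidase that makes extracellular reactive oxygen.

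The groups were the xpo4-2 cpr5 double mutant (n = 3), the cpr5 mutant (n = 3), the xpo4-2 mutant (n = 2) and Col-0 wild type (n = 3). All seedlings were 10 days old, received no treatment and grew on Murashige and Skoog medium with 1% sucrose, and strand-specific mRNA libraries were made from them. The product of CPR5 sits in the membrane of the nuclear pore and holds back SA defence, and that of XPO4, exportin-4, carries proteins across the pore. The study's title places XPO4 as a negative regulator of immune activation in cpr5, so the comparison of the double mutant with cpr5 is given most room. The cpr5 allele is not named in the labels, and each mutant line stands for its genotype alone.

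Library totals ran from 16922732 to 23088104 counts, and levels below are CPM, counts relative to the library total scaled by TMM factors of 0.907 to 1.18. XPO4 had 2.09, 0 and 2.27 CPM in xpo4-2 cpr5, 22.9, 18.3 and 27.7 CPM in cpr5, 1.00 and 4.80 CPM in xpo4-2, and 19.6, 21.3 and 23.5 CPM in wild type. Its level was low in all 5 libraries with the xpo4-2 label and did not overlap the others, with an adjusted p of 0.00715 for xpo4-2 cpr5 over cpr5 and 0.121 for xpo4-2 over wild type. CPR5 transcript was present in every library and was not lower in the cpr5 libraries, so it does not check that label. Wild-type libraries correlated with each other at r = 0.898 to 0.94 across genes, the widest range of the 4 genotypes, and wild-type replicate 1 stood apart in root hair genes, whose 5 markers summed to 1.63 CPM there. Since no label says that replicates were sown or grown apart, the spread behind each p-value is that between these samples and may be technical. The 7 shoot markers summed to 4779.8 to 7236 CPM in xpo4-2 cpr5, 22331 to 24168 CPM in cpr5, 27697 to 34785 CPM in xpo4-2 and 17178.5 to 27658 CPM in wild type. The root hair markers summed to 74.4 to 130.3 CPM in xpo4-2 cpr5, 20.01 to 25.0 CPM in cpr5, 14.9 to 48.9 CPM in xpo4-2 and 1.63 to 20.05 CPM in wild type. In such whole-seedling libraries, fewer cells of a type and less RNA per cell cannot be told apart, and the part of tissue makeup in the results below was not tested.

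In the TAIR10.1 annotation, 19 of the measured members lie in 1 tandem cluster on chromosome 4, from 12117491 to 12191704. They take up 19 of the 21 protein-coding genes in its 74.2 kb, with 8 on the plus strand and 11 on the minus strand. CRK36 to CRK40 form another group of 5 on chromosome 4, from 2231717 to 2292965, in which only AT4G04555 is another protein-coding gene. CRK30 to CRK34 lie at 6963521 to 6989793, CRK27 to CRK29 are spread over 86.1 kb that hold 16 other protein-coding genes, and the other measured members, CRK2, CRK3, CRK4, CRK25, CRK26, CRK41 and CRK42, are treated as single loci.

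Similar copies limit what the counts of some members mean. The most alike coding sequences were those of CRK19 and CRK20, with 86.9% identity over all aligned columns, CRK39 and CRK40 (85.8%), CRK28 and CRK29 (85.0%) and CRK31 and CRK32 (82.8%). For CRK6, 37% of the 31-base stretches of its longest coding sequence occurred elsewhere in the genome. The value was 22.5% for CRK22, 22.1% for CRK13, 16.2% for CRK8 and 15.8% for CRK20. CRK13 and CRK22 shared 439 of those stretches with each other, and CRK6 and CRK8 shared 376. The sources used here do not give how reads that match several genes were shared out, so values of these genes are uncertain as to the copy. CRK16 and CRK17 overlap by 1190 bp on the same strand and CRK28 and CRK29 by 470 bp, and CRK10 and CRK11 overlap by 32 bp on opposite strands. CRK16 and CRK17 shared 687 of the 31-base stretches.

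Summed over the family, CRK transcripts were most abundant in the double mutant. The 38 members summed to 1844, 1607 and 1765 CPM in xpo4-2 cpr5, 1488, 1239 and 1273 CPM in cpr5, 723 and 791 CPM in xpo4-2, and 791, 904 and 956 CPM in wild type. Every double-mutant library lay above every cpr5 library, and every cpr5 library lay above those of xpo4-2 and wild type. The sum does not describe each member: over cpr5, 26 of the 38 had log2 fold changes above 0, and 24 did not pass. Mean CPM rose most from cpr5 to the double mutant for CRK13 (16.8 to 128), CRK6 (32.7 to 130), CRK4 (44.9 to 132) and CRK36 (9.98 to 72.0). Of these, CRK6 and CRK13 are uncertain as to the copy. The large cluster alone summed to 985 to 1172 CPM in xpo4-2 cpr5, 748 to 865 CPM in cpr5, 431 to 454 CPM in xpo4-2 and 405 to 502 CPM in wild type. Per transcript length, in TPM, the order of the members differed between genotypes. CRK19 led in xpo4-2 cpr5 at 113 ± 15.1 TPM (SD), followed by CRK10 at 91.3 ± 28.4 TPM, CRK6 at 75.1 ± 29.5 TPM and CRK4 at 73.0 ± 5.41 TPM. These neighbours in the order lay within the spread of their libraries. CRK10 led in cpr5 at 89.5 ± 4.56 TPM, with CRK19 at 75.5 ± 6.22 TPM and CRK29 at 63.1 ± 8.76 TPM. CRK10 also led in xpo4-2, at 59.0 ± 5.68 TPM. In wild type, CRK29 was the most abundant member at 88.8 ± 14.5 TPM, ahead of CRK10 at 48.6 ± 1.87 TPM and CRK19 at 44.5 ± 11.5 TPM. The number of the 40 listed members under a mean of 1 TPM, CRK1 and CRK33 included, was 6 in xpo4-2 cpr5, 8 in cpr5, 13 in xpo4-2 and 16 in wild type. The share over all genes was not taken. TPM values carry no TMM scaling. On log2(TPM + 0.5), the median change of all genes in the double mutant was 0.31 over cpr5, 0.36 over xpo4-2 and 0.41 over wild type.

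**Figure D1:**
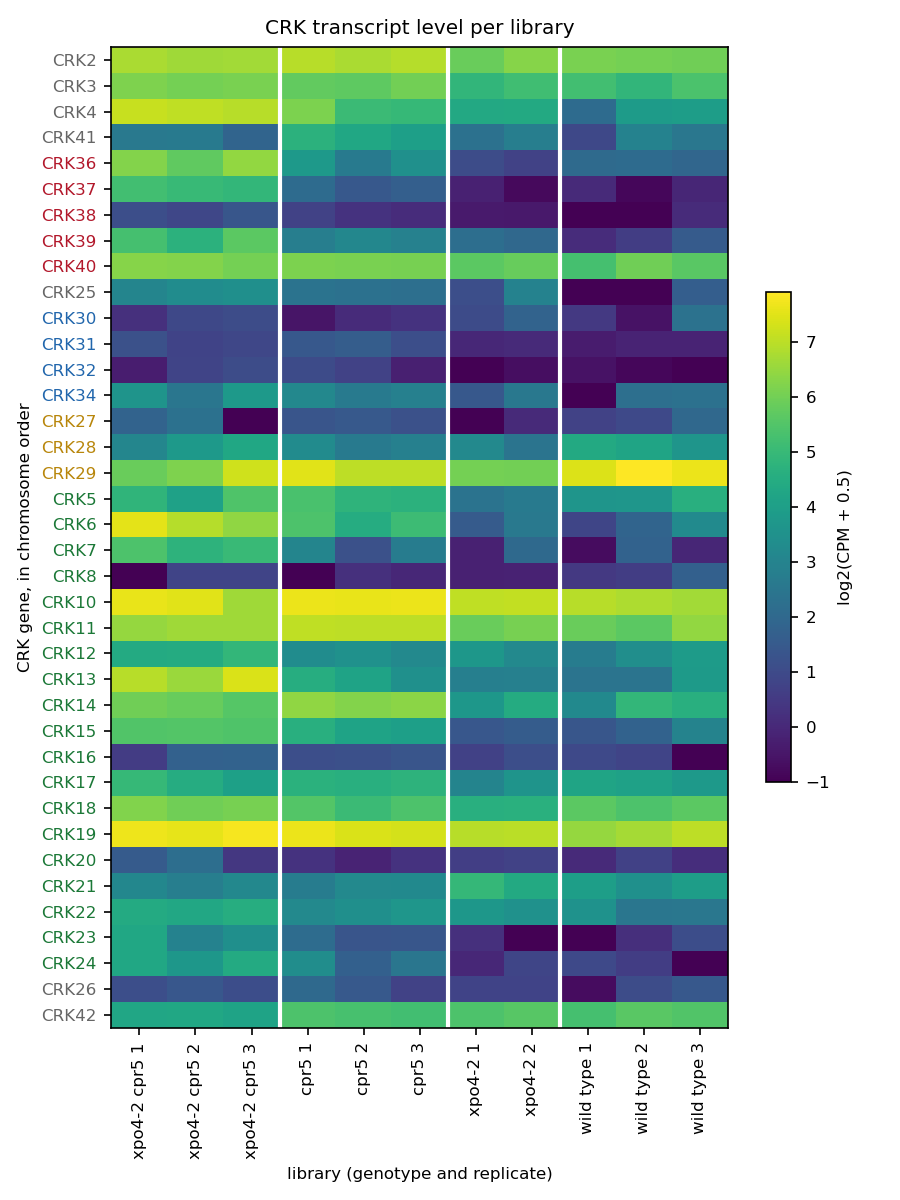
Level of each of the 38 measured CRK genes (rows, in chromosome order, names coloured by gene group) in each library (columns, by genotype and replicate), as log2(CPM + 0.5). CRK36, CRK37, CRK39, CRK6, CRK7 and CRK13 are brightest in the 3 xpo4-2 cpr5 libraries, while CRK42 is darkest there.

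Set against cpr5, the double mutant had higher transcript levels of CRK37 (AT4G04500), CRK13 (AT4G23210), CRK36 (AT4G04490), CRK7 (AT4G23150), CRK39 (AT4G04540) and CRK6 (AT4G23140), by fitted log2 fold changes of 1.99 to 3.46, and lower levels of CRK41 (AT4G00970) and CRK42 (AT5G40380). In all, 12 of the 38 members were higher and 2 lower at a Benjamini-Hochberg adjusted p under 0.05 by edgeR's quasi-likelihood test, which is the test behind every adjusted p below. Over all genes tested, 8.82% were higher and 12.9% lower in this comparison, 21.7% in either direction. The median log2 fold change was 0.63 over the members and 0.01 over all genes. The double-mutant libraries lay wholly above those of cpr5 for 17 members and wholly below for 5, against 23.6% of all genes above and 24% below. The count of higher members was 7 without cpr5 replicate 1, cpr5 replicate 3 or xpo4-2 cpr5 replicate 1 or 2, and 6 without cpr5 replicate 2. CRK36, CRK37, CRK39, CRK12 (AT4G23200), CRK13, CRK18 (AT4G23260) and CRK42 passed under all 19 alternative settings, including whichever library was left out.

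In the large cluster, 8 of 19 members were higher in the double mutant than in cpr5, with a median log2 fold change of 1.02. Of the 19 members outside it, 4 were higher and 2 lower, with a median of 0.30. The CRK36 to CRK40 (AT4G04570) group had 3 of 5 members higher and a median of 2.40. The large cluster did not lead in every comparison. In cpr5 over wild type, 6 of its 19 members were higher with a median of 0.95, against 8 of the 19 outside it with a median of 1.29. Of all genes, 4.3% were higher in that comparison. Over xpo4-2, the double mutant had 13 members higher and 1 lower in the cluster, and 7 higher and 1 lower outside it. All genes had 13.2% higher and 15.5% lower. Over wild type, the double mutant had 12 higher and 1 lower in the cluster, and 11 higher and 2 lower outside it. All genes had 18.1% higher and 19.1% lower. The cluster had the larger median over xpo4-2 and over wild type. The interaction described below was positive for 3 members in the cluster and 3 outside it, and negative for 0 and 1. Of all genes, 3.2% were positive and 5.51% negative. No test of the difference between these groups was made. Each count is read beside the share over all genes, which for the counts over cpr5 is given above.

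**Figure D2:**
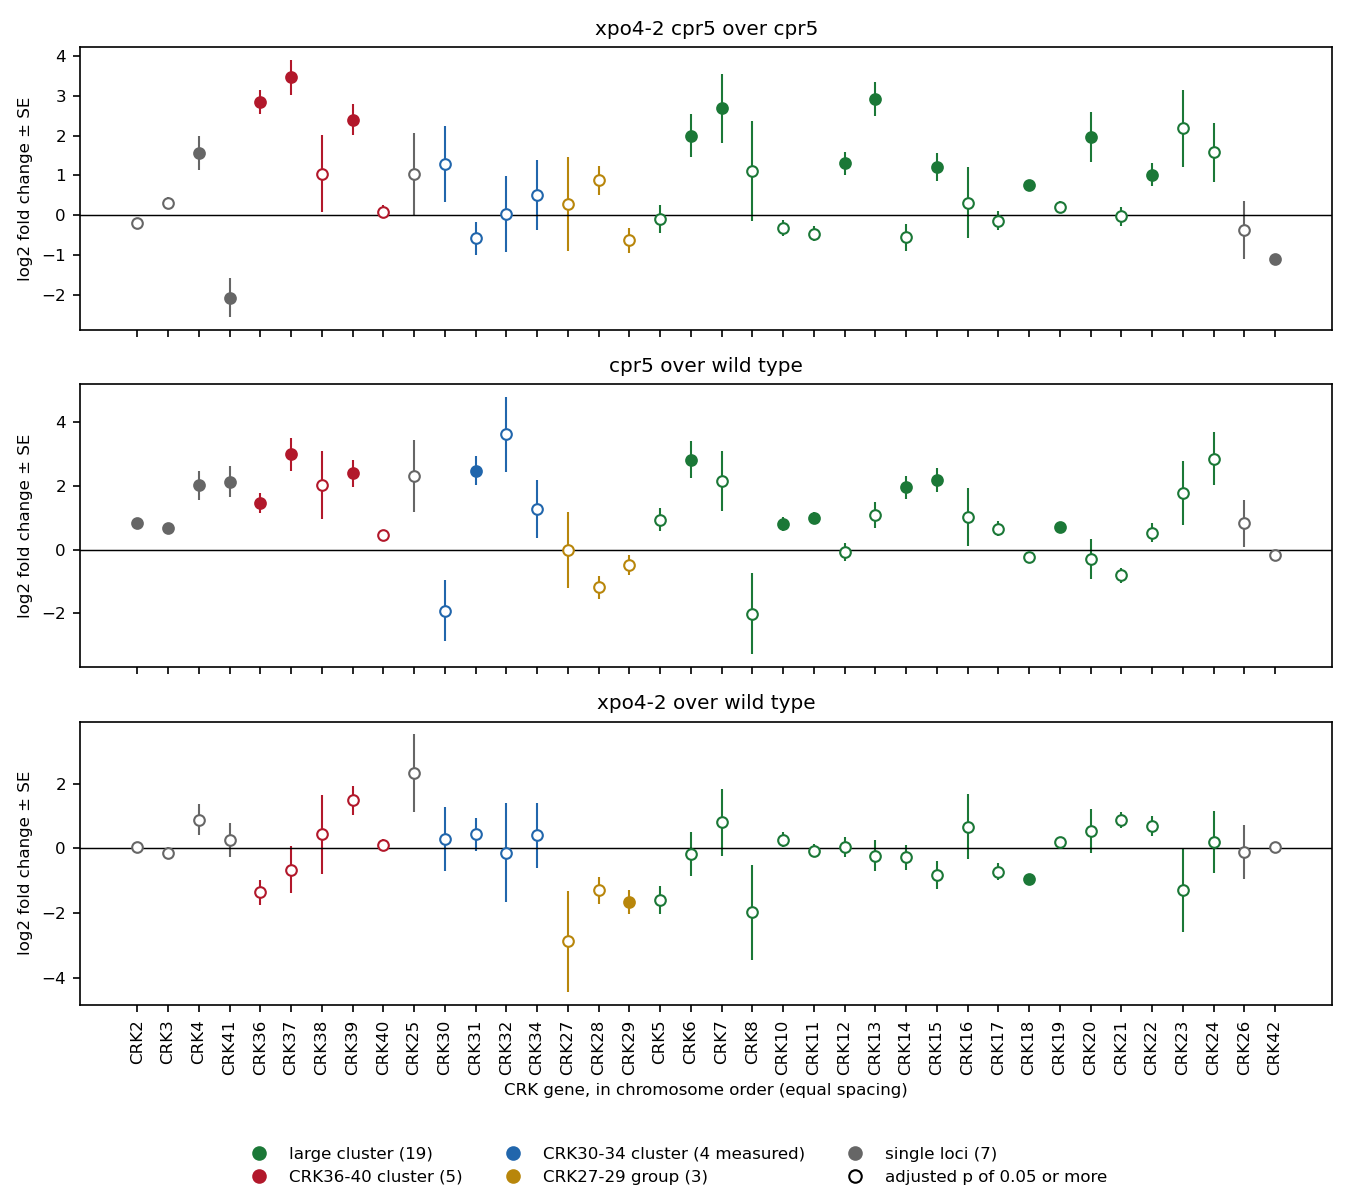
Log2 fold change (y axis, ± standard error) of each measured CRK gene (x axis, chromosome order) in xpo4-2 cpr5 over cpr5, cpr5 over wild type, and xpo4-2 over wild type, coloured by gene group. Filled points have an adjusted p under 0.05, and they number 14, 14 and 2 in the 3 panels.

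CRK36 and CRK28, members linked to immune receptors, differed from each other. CRK36 associates with the kinase BIK1 in signalling from the flagellin receptor FLS2. It had 75.7, 52.98 and 87.2 CPM in xpo4-2 cpr5, 13.7, 5.64 and 10.6 CPM in cpr5, 1.61 and 1.20 CPM in xpo4-2, and 3.68, 3.79 and 3.31 CPM in wild type. The 3 double-mutant libraries lay above all others, and those of cpr5 lay above those of xpo4-2 and wild type. The log2 fold change (± standard error) was 2.85 ± 0.30, adjusted p = 0.000221 in xpo4-2 cpr5 over cpr5, and 1.47 ± 0.31, adjusted p = 0.0197 in cpr5 over wild type. The call in cpr5 over wild type was lost without cpr5 replicate 1 (adjusted p = 0.0798), and without wild-type replicate 2 or cpr5 replicate 3. CRK28 (AT4G21400), which has been found with FLS2 and its co-receptor BAK1, behaved otherwise. It had 7.92, 13.2 and 19.4 CPM in xpo4-2 cpr5, 9.39, 5.80 and 6.89 CPM in cpr5, 8.73 and 4.93 CPM in xpo4-2, and 20.5, 17.8 and 11.9 CPM in wild type. Levels overlapped between the double mutant and each other genotype, and the log2 fold change over cpr5 was 0.88 ± 0.36, adjusted p = 0.110. CRK28 had not passed in cpr5 over wild type either (-1.18 ± 0.36, adjusted p = 0.0828), and its reads may include those of its overlapping neighbour CRK29 (AT4G21410).

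CRK37 and CRK39, neighbours of CRK36, were likewise highest in the double mutant and next in cpr5. CRK37 had 36.00, 31.2 and 29.4 CPM in xpo4-2 cpr5, 3.84, 2.23 and 2.72 CPM in cpr5, 0.389 and 0.0888 CPM in xpo4-2, and 0.543, 0.0601 and 0.474 CPM in wild type. It was near the floor of detection in xpo4-2 and wild type, where 1 count equals 0.0444 to 0.0603 CPM, and it was higher in all 3 double-mutant libraries than in any other. Its log2 fold change was 3.46 ± 0.44, adjusted p = 0.000567 in xpo4-2 cpr5 over cpr5. CRK39 had 38.2, 25.9 and 50.2 CPM in xpo4-2 cpr5, 6.51, 8.13 and 7.07 CPM in cpr5, 4.11 and 3.55 CPM in xpo4-2, and 0.603, 1.02 and 2.42 CPM in wild type. Double-mutant levels were above all others, the cpr5 levels were above those of xpo4-2 and wild type, and both xpo4-2 levels were above wild type. The fold change over cpr5 was 2.40 ± 0.38, adjusted p = 0.00190 on the log2 scale. CRK40, the closest relative of CRK39, was at 65.4 to 77.7 CPM in xpo4-2 cpr5 and 66.9 to 70.2 CPM in cpr5, and did not pass (0.09, adjusted p = 0.735). CRK38 (AT4G04510) stayed under 2.2 CPM in every library.

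The 250 bases before the annotated start of 4 members are shown because they are the 3 with the largest rise over cpr5 and the 1 with the largest fall. They were read from the TAIR10.1 genome and RefSeq gene starts, in the direction of the gene. Capitals mark TTGAC on either strand (GTCAA where it lies on the other strand), the core of the W box to which WRKY transcription factors bind.
CRK37, chr4:2238120-2238369, plus strand: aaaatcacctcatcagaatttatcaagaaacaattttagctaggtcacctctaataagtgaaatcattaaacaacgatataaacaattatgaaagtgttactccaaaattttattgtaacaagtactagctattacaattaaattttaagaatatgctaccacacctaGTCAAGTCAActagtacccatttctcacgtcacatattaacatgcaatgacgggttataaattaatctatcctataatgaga
CRK13, chr4:12151639-12151888, minus strand: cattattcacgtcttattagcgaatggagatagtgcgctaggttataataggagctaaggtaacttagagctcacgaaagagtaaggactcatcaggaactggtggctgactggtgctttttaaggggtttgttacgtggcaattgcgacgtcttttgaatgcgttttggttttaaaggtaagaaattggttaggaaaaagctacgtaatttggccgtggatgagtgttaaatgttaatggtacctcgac
CRK36, chr4:2234690-2234939, minus strand: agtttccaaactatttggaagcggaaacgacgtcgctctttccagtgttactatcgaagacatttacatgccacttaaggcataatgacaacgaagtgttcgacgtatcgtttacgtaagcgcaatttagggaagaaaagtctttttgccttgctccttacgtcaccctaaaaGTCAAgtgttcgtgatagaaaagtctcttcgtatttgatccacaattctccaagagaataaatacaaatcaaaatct
CRK41, chr4:418077-418326, plus strand: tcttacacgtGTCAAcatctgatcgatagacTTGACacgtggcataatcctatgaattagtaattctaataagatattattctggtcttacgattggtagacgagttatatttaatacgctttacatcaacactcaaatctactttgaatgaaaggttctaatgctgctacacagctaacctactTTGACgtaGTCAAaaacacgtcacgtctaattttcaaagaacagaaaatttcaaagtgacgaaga
CRK37 has 2 matches, which begin 82 and 77 bases before the gene start, and CRK36 has 1, at 77 bases. CRK41, which fell, has the most with 4, and CRK13 has 0 matches in this window. None of the 4 windows overlaps an exon of another gene. Those of CRK15, CRK24, CRK25, CRK26, CRK28, CRK29, CRK34 and CRK40 do, and they were kept in the counts below. The CRK40 window ends at 2288615, while its isoforms AT4G04570.1 and AT4G04570.2 start at 2289902. Isoforms of other members also start inside the gene, such as AT4G11460.1 of CRK30, at 6964468 after a window ending at 6963520. The CRK28 window begins at 11402181, while its isoforms other than AT4G21400.8 start at 11401709 on the minus strand. Over the family, 29 of 40 windows (72.5%) held TTGAC at least 1 time, against 44.9% of 27443 protein-coding genes, and 40% against 14.1% held it at least 2 times. The large cluster gave 19 of these windows, 14 of them with TTGAC. Windows of tandem copies are not independent of each other, and no test of these shares was made. The motif was found before 9 of the 12 members that were higher in the double mutant than in cpr5 (75%) and 20 of the other 28 (71.4%). At least 2 matches were found before 50% of those 12 and 35.7% of the other 28, and at least 3 before 8.33% and 21.4%. TGACG, bound by TGA factors, was found on either strand before 30% of members and 18.6% of all genes. It occurred before 5 of the 12 higher members (41.7%) and 7 of the other 28 (25%). The letters TTGACG hold both motifs and occur 1 time each before CRK7, CRK31 and CRK41.

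Members whose induced or raised expression is known to trigger cell death include CRK4 (AT3G45860), CRK5 (AT4G23130), CRK13, CRK19 (AT4G23270) and CRK20 (AT4G23280). CRK13, which on overexpression gives hypersensitive cell death and SA-dependent resistance, had 123, 93.6 and 168 CPM in xpo4-2 cpr5, 22.7, 17.2 and 10.6 CPM in cpr5, 6.62 and 6.88 CPM in xpo4-2, and 4.88, 4.81 and 13.9 CPM in wild type. Every double-mutant library lay above every other library, and cpr5 overlapped wild type. The log2 fold change was 2.93 ± 0.43, adjusted p = 0.00110 over cpr5, while cpr5 over wild type did not pass (1.09 ± 0.42, adjusted p = 0.158). CRK22 (AT4G23300), which shares sequence with CRK13, was at 19.9 to 22.6 CPM in xpo4-2 cpr5 and 8.70 to 12.4 CPM in cpr5 (1.02 ± 0.28, adjusted p = 0.0276). CRK4 had 143, 133 and 121 CPM in xpo4-2 cpr5, 70.9, 33.2 and 30.6 CPM in cpr5, 20.2 and 20.8 CPM in xpo4-2, and 3.86, 14.1 and 15.1 CPM in wild type. The double mutant stood highest, then cpr5, xpo4-2 and wild type, with no overlap between genotypes. CRK4 was higher in xpo4-2 cpr5 than in cpr5 (1.56 ± 0.43, adjusted p = 0.0260), which no longer passed when cpr5 replicate 2 or 3 or any double-mutant library was left out (highest adjusted p = 0.105).

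CRK5, CRK19 and CRK20, also named above, differed from CRK13. CRK5 had 27.99, 16.6 and 43.1 CPM in xpo4-2 cpr5, 40.3, 27.3 and 25.9 CPM in cpr5, 4.73 and 5.91 CPM in xpo4-2, and 12.00, 12.2 and 24.05 CPM in wild type. Its double-mutant and cpr5 libraries overlapped, both lay above those of xpo4-2, and the log2 fold change over cpr5 was -0.09 ± 0.36, adjusted p = 0.891. CRK19 was abundant in all genotypes, at 188 to 222 CPM in xpo4-2 cpr5, 159 to 201 CPM in cpr5, 121 to 125 CPM in xpo4-2 and 90.5 to 129.9 CPM in wild type. It was higher in cpr5 than in wild type (0.71 ± 0.15, adjusted p = 0.0202), and the double mutant did not pass against cpr5 (0.22, adjusted p = 0.336). CRK20, the member most alike to CRK19 in coding sequence, was low. It had 2.41, 4.16 and 0.852 CPM in xpo4-2 cpr5, 0.747, 0.414 and 0.725 CPM in cpr5, 1.06 and 1.20 CPM in xpo4-2, and 0.543, 1.14 and 0.631 CPM in wild type. Every double-mutant library was above every cpr5 library, with 0.852 CPM in the lowest, and the call over cpr5 (1.96 ± 0.62, adjusted p = 0.0460) was lost under 9 of the 19 alternatives.

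CRK6 and CRK7, which protect against damage from extracellular reactive oxygen, rose steeply with large spread. CRK6 had 187, 119.7 and 84.5 CPM in xpo4-2 cpr5, 42.2, 22.1 and 33.8 CPM in cpr5, 2.45 and 5.60 CPM in xpo4-2, and 1.33, 3.13 and 9.10 CPM in wild type. Groups did not overlap between the double mutant and cpr5, or between cpr5 and the remaining libraries. CRK7 had 42.6, 26.8 and 32.5 CPM in xpo4-2 cpr5, 7.84, 1.81 and 6.16 CPM in cpr5, 0.389 and 3.64 CPM in xpo4-2, and 0.121, 2.95 and 0.474 CPM in wild type. It too was highest in all 3 double-mutant libraries, while cpr5 replicate 2 lay below wild-type replicate 2. The log2 fold changes over cpr5 were 1.99 ± 0.54, adjusted p = 0.0251 for CRK6 and 2.69 ± 0.87, adjusted p = 0.0489 for CRK7. Both calls were lost without cpr5 replicate 2, at adjusted p = 0.103 for CRK6 and 0.157 for CRK7. CRK2 (AT1G70520), which binds and phosphorylates the NADPH oxidase RBOHD, did not pass in this comparison (-0.18 ± 0.12, adjusted p = 0.322).

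Further members higher in the double mutant than in cpr5 were CRK12, CRK15 (AT4G23230) and CRK18, all in the large cluster. CRK15 had 43.8, 45.6 and 43.02 CPM in xpo4-2 cpr5, 23.9, 17.3 and 15.9 CPM in cpr5, 2.17 and 2.53 CPM in xpo4-2, and 2.11, 3.01 and 7.31 CPM in wild type. The 3 double-mutant libraries were alike and above those of cpr5, which were above the rest (1.21 ± 0.35, adjusted p = 0.0310 over cpr5, which no longer passed when any 1 of these 6 libraries was left out, at adjusted p up to 0.109). CRK18 had 74.3, 62.4 and 66.6 CPM in xpo4-2 cpr5, 45.2, 33.3 and 42.3 CPM in cpr5, 24.02 and 24.6 CPM in xpo4-2, and 49.9, 41.9 and 49.8 CPM in wild type. It was highest in the double mutant and lowest in xpo4-2, with cpr5 and wild type between and overlapping. The log2 fold change over cpr5 was 0.75 ± 0.14, adjusted p = 0.00405. CRK12 was at 21.0 to 28.9 CPM in xpo4-2 cpr5 and 8.64 to 10.9 CPM in cpr5 (1.30 ± 0.29, adjusted p = 0.00970).

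**Figure D3:**
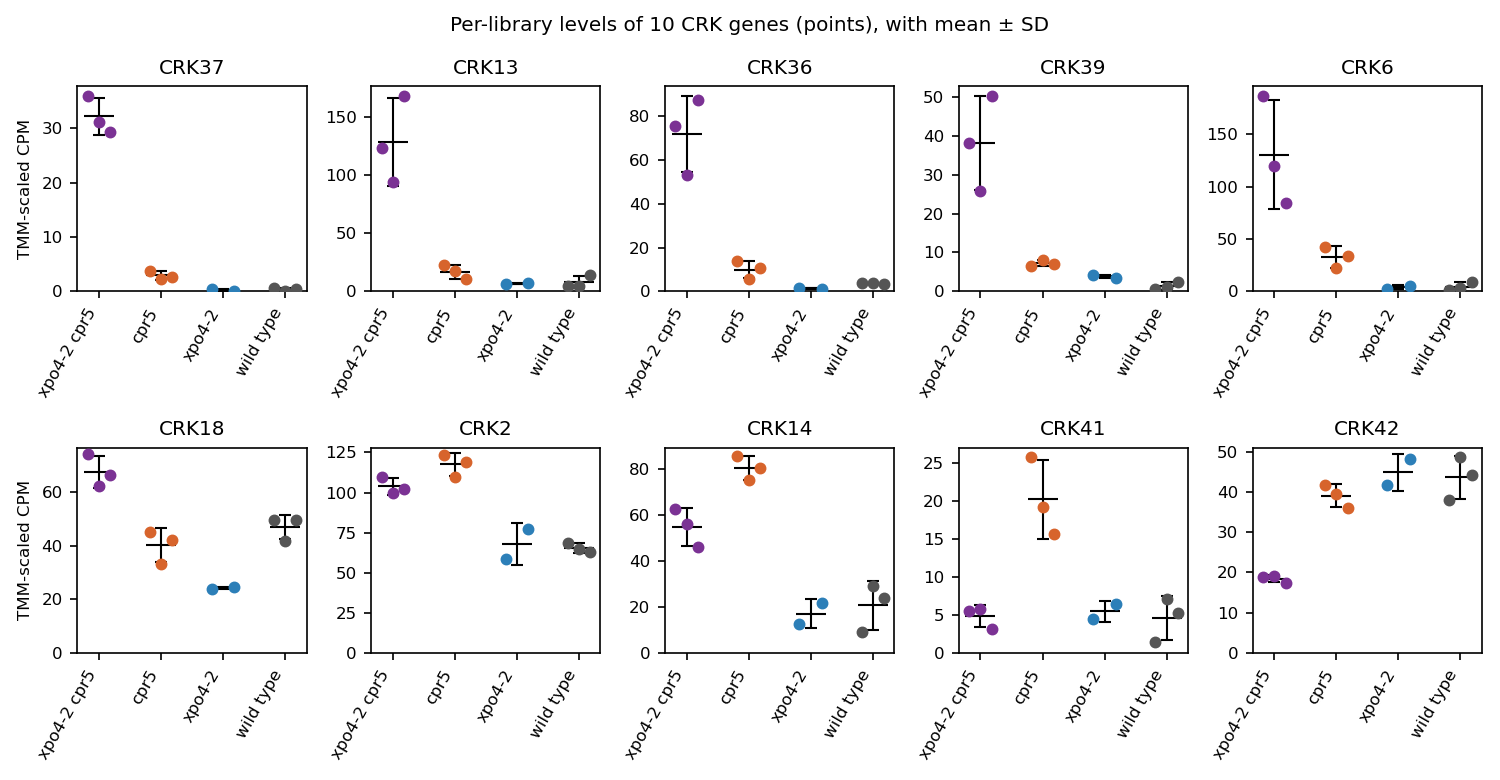
TMM-scaled CPM (y axis, from 0) of 10 CRK genes in each library (points), with mean and SD (bars), by genotype. CRK37, CRK13, CRK36, CRK39, CRK6 and CRK18 are highest in the xpo4-2 cpr5 libraries, CRK41 is high in cpr5 alone of the 4 genotypes, and CRK42 is lowest in xpo4-2 cpr5.

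CRK41 and CRK42 were lower in the double mutant than in cpr5. CRK41 had 5.55, 5.83 and 3.17 CPM in xpo4-2 cpr5, 25.9, 19.2 and 15.6 CPM in cpr5, 4.50 and 6.44 CPM in xpo4-2, and 1.39, 7.15 and 5.21 CPM in wild type. All 3 cpr5 libraries were above every other library, and the double mutant overlapped xpo4-2 and wild type. It was higher in cpr5 than in wild type (2.14 ± 0.49, adjusted p = 0.0289), and the double mutant over cpr5 gave -2.06 ± 0.49, adjusted p = 0.0134. Both calls depended on single libraries: leaving out cpr5 replicate 1 gave an adjusted p of 0.112 for cpr5 over wild type and 0.0539 for the double mutant over cpr5. CRK42 had 18.8, 19.1 and 17.4 CPM in xpo4-2 cpr5, 41.8, 39.4 and 36.1 CPM in cpr5, 41.7 and 48.1 CPM in xpo4-2, and 38.04, 48.6 and 44.3 CPM in wild type. The double-mutant libraries all lay below every other library, and the other 3 genotypes overlapped. The fold change was -1.08 ± 0.13, adjusted p = 0.000378 on the log2 scale over cpr5, and -1.28 ± 0.14, adjusted p = 0.000148 over xpo4-2.

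Compared with wild type, cpr5 had higher levels of 14 of the 38 members and lower levels of 0, against 4.3% of all genes higher and 2.34% lower, 6.64% in all. At an unadjusted p under 0.05, 2 members were lower by edgeR, and DESeq2 called 2 lower (CRK28 and CRK21) and limma 0. Over all genes, DESeq2 called 2640 of 21580 in either direction and limma 1536 of 21570, against 1433 by edgeR. Shares of all genes at an unadjusted p, and by direction for DESeq2 and limma, were not taken. The members' median log2 fold change was 0.97 and that of all genes -0.01. Libraries of cpr5 lay wholly above those of wild type for 24 members, against 16.5% of all genes. The largest called rises were those of CRK37 (2.99 ± 0.52), CRK6 (2.84 ± 0.59), CRK31 (2.49 ± 0.46), CRK39 (2.40 ± 0.42), CRK15 (2.19 ± 0.37) and CRK41. The count was 6 without cpr5 replicate 1, 9 without cpr5 replicate 2, cpr5 replicate 3 or wild-type replicate 2, and 12 without wild-type replicate 1, the library that stood apart, and 1 member was lower without wild-type replicate 3. CRK2, CRK11 (AT4G23190), CRK14 (AT4G23220), CRK15 and CRK39 passed under every alternative.

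CRK2, CRK3 (AT1G70530), CRK10 (AT4G23180), CRK11 and CRK14 were higher in cpr5 than in wild type and did not pass in the double mutant over cpr5. CRK2 had 109.6, 99.7 and 102 CPM in xpo4-2 cpr5, 124, 109.8 and 119 CPM in cpr5, 58.6 and 77.3 CPM in xpo4-2, and 68.7, 65.1 and 62.6 CPM in wild type. The 3 cpr5 libraries lay above those of xpo4-2 and wild type, as did those of the double mutant, which lay just below cpr5 (0.84 ± 0.12, adjusted p = 0.00356 for cpr5 over wild type). CRK3, its neighbour on chromosome 1, had 72.7, 66.1 and 69.4 CPM in xpo4-2 cpr5, 54.2, 50.9 and 63.7 CPM in cpr5, 28.8 and 35.5 CPM in xpo4-2, and 36.05, 28.4 and 41.5 CPM in wild type. Double-mutant libraries were above all others there. It passed over cpr5 with no scaling beyond library totals and in the limma fits (lowest adjusted p = 0.0276), and cpr5 over wild type gave 0.67 ± 0.16, adjusted p = 0.0305, a call lost under 6 of the 19 alternatives (highest adjusted p = 0.119). CRK14 was at 46.2 to 62.7 CPM in xpo4-2 cpr5, 75.3 to 85.5 CPM in cpr5, 12.5 to 21.5 CPM in xpo4-2 and 8.92 to 29.2 CPM in wild type. Its log2 fold change in cpr5 over wild type was 1.96 ± 0.36, adjusted p = 0.0114, while the double mutant over cpr5 did not pass (-0.55, adjusted p = 0.291).

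CRK11, also called RLK3 and known to respond to oxidative stress, had 89.3, 98.4 and 97.6 CPM in xpo4-2 cpr5, 133, 130.0 and 128 CPM in cpr5, 57.8 and 66.3 CPM in xpo4-2, and 57.7, 49.8 and 88.1 CPM in wild type. All cpr5 libraries lay above the double mutant, and both lay above xpo4-2 and wild type (1.00 ± 0.18, adjusted p = 0.0114 for cpr5 over wild type). CRK10, its overlapping neighbour, had 196, 179 and 97.9 CPM in xpo4-2 cpr5, 197, 193 and 198 CPM in cpr5, 132 and 136 CPM in xpo4-2, and 122, 111 and 102 CPM in wild type. The double-mutant library of replicate 3 lay at about wild-type level, below the other two, and cpr5 lay above xpo4-2 and wild type. The call in cpr5 over wild type (0.81 ± 0.21, adjusted p = 0.0463) was lost under 10 of the 19 alternatives. CRK31 (AT4G11470) had 1.82, 1.22 and 1.34 CPM in xpo4-2 cpr5, 2.24, 2.59 and 1.69 CPM in cpr5, 0.5004 and 0.533 CPM in xpo4-2, and 0.301, 0.421 and 0.421 CPM in wild type. It was low throughout, with the libraries of the double mutant and cpr5 above those of xpo4-2 and wild type.

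In xpo4-2 compared with wild type, 0 members were higher and 2 lower by edgeR's quasi-likelihood test, against 0.755% of all genes higher and 1.96% lower. At an unadjusted p under 0.05, 2 were higher and 6 lower. DESeq2 called 2 higher (CRK39 and CRK21) and 5 lower, and limma 0 and 2. Over all genes, DESeq2 called 1891 of 21580 in either direction and limma 581 of 21570, against 586 by edgeR. Shares of all genes at an unadjusted p, and by direction for DESeq2 and limma, were not taken. The members' median log2 fold change was 0.04 and that of all genes 0.02. CRK18 was lower in xpo4-2 (-0.96 ± 0.16, adjusted p = 0.0158), and both its libraries lay below all 3 of wild type. The call was lost without xpo4-2 replicate 1 or 2. CRK29 had 57.9, 72.2 and 153 CPM in xpo4-2 cpr5, 179, 128 and 129.9 CPM in cpr5, 66.00 and 63.4 CPM in xpo4-2, and 173, 239 and 201 CPM in wild type. Both xpo4-2 libraries lay below those of wild type and cpr5 and within the range of the double mutant, in which replicate 3 stood high. The log2 fold change in xpo4-2 over wild type was -1.66 ± 0.37, adjusted p = 0.0423. This call was lost in 7 of the 11 fits that left out 1 library, with a highest adjusted p of 0.197. The count of lower members was 0 without either xpo4-2 library and 1 without wild-type replicate 2 or 3 or any cpr5 library, and that of higher members was 1 without wild-type replicate 1 and 2 without wild-type replicate 3.

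The double mutant compared with xpo4-2 gave 20 higher and 2 lower members, against 13.2% and 15.5% of all genes, with a members' median log2 fold change of 1.21. Without xpo4-2 replicate 1 the count of higher members was 12. CRK37 (7.11 ± 0.68), CRK36 (5.68 ± 0.43), CRK23 (5.25 ± 1.38), CRK6 (4.999 ± 0.76), CRK13 (4.25 ± 0.54) and CRK24 (4.24 ± 1.02) had the largest called log2 fold changes. CRK23 (AT4G23310) had 19.3, 7.20 and 10.3 CPM in xpo4-2 cpr5, 3.95, 2.02 and 2.11 CPM in cpr5, 0.667 and 0 CPM in xpo4-2, and 0, 0.661 and 1.63 CPM in wild type. Every double-mutant library was above every cpr5 library, though the test over cpr5 did not pass (2.18, adjusted p = 0.134). CRK24 (AT4G23320) had 19.2, 12.7 and 21.3 CPM in xpo4-2 cpr5, 9.87, 2.85 and 5.07 CPM in cpr5, 0.5004 and 1.33 CPM in xpo4-2, and 1.45, 1.02 and 0 CPM in wild type. Its double-mutant libraries were highest as well, with the same outcome against cpr5 (1.58, adjusted p = 0.162). Against wild type, the double mutant had 23 higher and 3 lower members, with 18.1% and 19.1% of all genes, and a members' median of 1.29. The comparisons of the double mutant share its 3 libraries, so their counts are not independent. The count of lower members was 1 without xpo4-2 cpr5 replicate 2 or with no scaling beyond library totals.

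CRK21 (AT4G23290) was lower in the double mutant than in xpo4-2 and wild type. It had 8.28, 6.49 and 8.36 CPM in xpo4-2 cpr5, 6.24, 8.54 and 8.82 CPM in cpr5, 30.1 and 20.9 CPM in xpo4-2, and 15.4, 10.7 and 15.2 CPM in wild type. The xpo4-2 libraries were highest and wild type next, and the double mutant overlapped cpr5. The log2 fold change was -1.72 ± 0.25, adjusted p = 0.000611 over xpo4-2 and -0.83 ± 0.23, adjusted p = 0.0155 over wild type. CRK29 was lower in the double mutant than in wild type (-1.11 ± 0.31, adjusted p = 0.0176), and CRK42 was as well (-1.24 ± 0.13, adjusted p = 6.85e-05). Of the 5 members of the CRK36 to CRK40 group, all 5 were higher in the double mutant than in wild type, with a median log2 fold change of 4.32, and those of CRK38 and CRK40 were lost under 11 and 3 of the 19 alternatives.

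The remaining members had few calls, and most were weakly expressed. CRK17 (AT4G23250) was at 16.4 to 30.5 CPM in xpo4-2 cpr5, 24.3 to 26.5 CPM in cpr5, 7.67 to 11.8 CPM in xpo4-2 and 13.6 to 17.9 CPM in wild type, and it passed only in the double mutant over xpo4-2 (1.24 ± 0.27, adjusted p = 0.00666), a call lost without xpo4-2 replicate 1. CRK25 (AT4G05200) was at 7.74 to 10.3 CPM in xpo4-2 cpr5, 4.23 to 4.75 CPM in cpr5, 1.72 to 7.28 CPM in xpo4-2 and 0 to 2.63 CPM in wild type. It was higher in the double mutant than in wild type (3.34 ± 1.15, adjusted p = 0.0424), as was CRK32 (AT4G11480), which stayed at or under 1.58 CPM (3.65 ± 1.17, adjusted p = 0.0311), and these calls were lost under 10 of the 19 alternatives for CRK25 and 5 for CRK32. CRK34 (AT4G11530) reached 13.4 CPM in a double-mutant library and passed in no comparison. CRK8 (AT4G23160), CRK16 (AT4G23240), CRK26 (AT4G38830), CRK27 (AT4G21230) and CRK30 (AT4G11460) were at or under 4.58 CPM in every library and also passed in none.

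The interaction asks whether xpo4-2 had the same effect in cpr5 as in wild type. It was positive at an adjusted p under 0.05 for 6 members, CRK36, CRK37, CRK13, CRK28, CRK15 and CRK18, and negative for CRK42, against 3.2% and 5.51% of all genes, 8.71% in all. CRK36 had the largest value, 4.21 ± 0.49, adjusted p = 0.00209: xpo4-2 over wild type was -1.36 ± 0.39 (not passed), while the double mutant over cpr5 was 2.85 ± 0.30. CRK18 gave 1.71 ± 0.21, adjusted p = 0.00235, from a lower level in xpo4-2 and a higher one in the double mutant. CRK42 gave -1.13 ± 0.19, adjusted p = 0.00689. The count of positive members was 3 without xpo4-2 replicate 1 and 2 without xpo4-2 replicate 2, and that of negative members was 2 without wild-type replicate 1 or 2 and 3 without wild-type replicate 3. Only CRK36 and CRK18 passed under every alternative run, and CRK42 did in all but the 2 limma fits on TPM.

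The deposited transcript table separates annotated isoforms, and those of CRK29 and CRK40 are given as values with no test, chosen after their values were seen. For CRK29, the isoform AT4G21410.3 runs over 7 exons from 11401711 to 11405235 on the minus strand of chromosome 4 and codes over 2040 bp. It had 21.6, 14.05 and 30.1 TPM in xpo4-2 cpr5, 0, 0 and 0 TPM in cpr5, 0 and 0.470 TPM in xpo4-2, and 0, 0 and 0 TPM in wild type. It was therefore found in all 3 double-mutant libraries at 14.1 TPM or more, and elsewhere only at 0.47 TPM in 1 xpo4-2 library. AT4G21410.2 has the same ends and keeps a 74 bp intron at 11403020 to 11403093. It had 3.99, 14.2 and 34.5 TPM in xpo4-2 cpr5, 43.5, 30.9 and 33.04 TPM in cpr5, 13.7 and 16.5 TPM in xpo4-2, and 30.1, 47.7 and 45.1 TPM in wild type. AT4G21410.1, with shorter ends, had 2.39, 5.59 and 16.4 TPM in xpo4-2 cpr5, 29.5, 25.5 and 26.9 TPM in cpr5, 13.3 and 10.3 TPM in xpo4-2, and 43.3, 54.3 and 45.9 TPM in wild type. Both were lower in double-mutant replicates 1 and 2 than in any cpr5 or wild-type library. In double-mutant replicate 3, AT4G21410.1 was lower too, while AT4G21410.2 fell among them. Such values are estimates from shared reads, and assembled models not tied to a gene may take some of them.

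For CRK40, the 7-exon isoform AT4G04570.1 (1965 coding bp) had 42.8, 36.4 and 32.2 TPM in xpo4-2 cpr5, 20.05, 26.1 and 22.99 TPM in cpr5, 13.4 and 19.3 TPM in xpo4-2, and 5.24, 15.6 and 14.5 TPM in wild type. The 6-exon isoform AT4G04570.2 (1716 coding bp) had 2.81, 5.94 and 7.59 TPM in xpo4-2 cpr5, 9.12, 5.24 and 8.47 TPM in cpr5, 6.85 and 6.14 TPM in xpo4-2, and 9.75, 10.04 and 7.32 TPM in wild type. AT4G04570.1 made up 80.9% to 93.8% of the CRK40 TPM in xpo4-2 cpr5, 67.2% to 83.0% in cpr5, 65.8% to 74.8% in xpo4-2 and 35.0% to 66.4% in wild type.

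**Figure D4:**
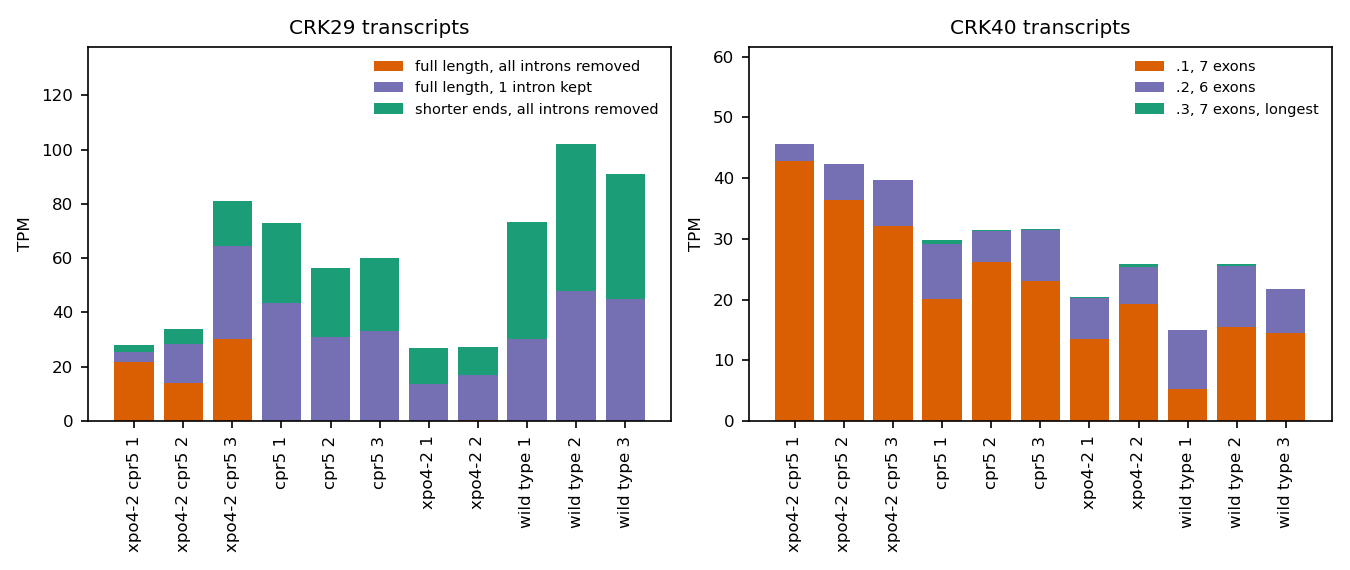
TPM (y axis, stacked from 0) of the annotated CRK29 and CRK40 isoforms in each library (x axis). The fully spliced full-length CRK29 isoform is seen in the 3 xpo4-2 cpr5 libraries and is at 0 or near it in the others, and AT4G04570.1 makes up 80.9% to 93.8% of CRK40 in xpo4-2 cpr5.

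Genes that work with CRKs were counted in lists chosen with earlier results of these data known, and each count is read beside the shares of all genes, 8.82% higher and 12.9% lower in the double mutant over cpr5, 4.3% higher in cpr5 over wild type and 18.1% higher in the double mutant over wild type. Of 11 SA genes, 8 were higher in the double mutant than in cpr5, led by ICS1 (2.98), the enzyme of SA synthesis, PBS3 (2.80) and PR2 (2.32), and 9 were higher in cpr5 than in wild type. Of 9 WRKY factors, 5 were higher than in cpr5, WRKY60 (1.78), WRKY46 (1.57) and WRKY6 (1.43) most, and 1 was lower. Of 9 pattern receptors and their partners, FLS2 was higher in the double mutant than in cpr5 (1.46 ± 0.32, adjusted p = 0.00989), and BKK1, a relative of BAK1, was lower (-0.76 ± 0.23, adjusted p = 0.0353). That is 11.1% in each direction, near the shares of all genes. In cpr5 over wild type 4 of these 9 were higher, SOBIR1 (1.16), BIK1 (0.80) and CERK1 (0.68) most. Of 8 measured NADPH oxidases, 0 passed by edgeR in the double mutant over cpr5, with 2 higher at an unadjusted p under 0.05, 2 by DESeq2 and 2 by limma. Over all genes, DESeq2 called 5966 and limma 7166 there in either direction, against 4682 by edgeR. Shares of all genes at an unadjusted p, and by direction for DESeq2 and limma, were not taken. Compared with wild type, 6 of the oxidases were higher in the double mutant by edgeR. RBOHD, given as the known partner of CRK2, did not pass in either (-0.38, adjusted p = 0.151 over cpr5, 0.14, adjusted p = 0.552 over wild type). Among 8 PDLPs, plasmodesmal proteins that carry DUF26 domains like the CRKs, PDLP5 was the 1 gene higher in the double mutant than in cpr5 (1.04 ± 0.17, adjusted p = 0.00241), 12.5% of the list. These values are log2 fold changes.

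Genes around the large cluster were counted as well. Of 19 tested genes that are no members and have codes from AT4G23000 to AT4G23450, 2 were higher and 2 lower in the double mutant than in cpr5, with a median log2 fold change of 0.03, and 1 was higher in cpr5 than in wild type. These are 10.5% higher and 10.5% lower over cpr5 and 5.26% higher in cpr5 over wild type, near the shares of all genes. The gene higher in cpr5 was EP1 (AT4G23170), which lies inside the cluster but is not among the 40 listed loci. Whether EP1 belongs to the family was not examined. Its code lies between those of CRK8 and CRK10, so the neighbour counts, and the 1 higher in cpr5, may include a family member. It gave 0.81 ± 0.15, adjusted p = 0.0130 in cpr5 over wild type and 0.44 ± 0.15, adjusted p = 0.0613 in the double mutant over cpr5. AT4G23030 (1.70) and AT4G23440 (0.75) were the 2 higher ones, and PIP1;5 (-0.85), an aquaporin, and IQD22 (-0.82) the 2 lower ones.

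Tissue markers moved in the same comparison as the members. All 7 shoot markers, genes of the light-harvesting complex and the small subunit of Rubisco, were lower in the double mutant than in cpr5, and 1 of 5 root hair markers, PRP3, was higher by edgeR (2.29 ± 0.63, adjusted p = 0.0270). All 5 root hair markers had positive log2 fold changes there, 1.08 to 2.31 with a median of 2.14, and 4 were higher at an unadjusted p under 0.05, 1 by DESeq2 and 4 by limma. That limma fit called 7166 of 21570 genes in the double mutant over cpr5, in either direction, with an all-gene median of 0.31. DESeq2 called 5966 of 21580 there. Shares of all genes at an unadjusted p were not taken in any comparison. Of the 6 root markers 1 was higher, of 5 trichome markers 2 were lower, of 5 guard cell markers 1 was higher, of 4 vascular markers 1 was lower, and the 1 seed marker tested, SESA1, was lower (-4.71). In cpr5 over wild type, 1 of 6 root markers and 1 of 5 trichome markers were higher and SESA1 was lower (-2.70). The shoot, root hair, guard cell and vascular lists had 0 calls by edgeR in that comparison. At an unadjusted p under 0.05, 1 shoot marker was lower and 1 root hair and 1 vascular marker were higher, DESeq2 called 1 vascular marker higher, and limma called 0 in these 4 lists.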

How the data were processed

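Strand-specific mRNA libraries of 11 seedling samples were analysed. The tools named in the submitters' processing notes are HISAT2 2.0.4 and HTSeq 0.6.1p1, the genome build there is TAIR10, and no step is tied to any of them. Whole-number counts were deposited for 22160 genes, and the deposited TPM table holds 71164 transcripts, named for kallisto in its deposited title. Within 5998 genes with 1 transcript and at least 100 counts, log2 of count over TPM varied by an SD of 0.00788 (median), against 0.0582 from sampling. The counts may therefore be estimates made with the TPM values, and were treated as counts. TPM is no independent measurement, and gene TPM is the sum over a gene's listed transcripts. Reads had no molecular identifiers, so counts are not independent molecules. The deposited files give no coordinates: positions and sequences come from TAIR10.1, and names from its RefSeq table, in which all 40 members matched.

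Counts were tested with edgeR 4.0.16 in R 4.3.3 in 1 fit of all 11 libraries (filterByExpr by group, which removed 580 genes, TMM scaling, glmQLFit and glmQLFTest), with Benjamini-Hochberg adjustment over 21580 genes and calls at 0.05. The script was tested on simulated counts first. The 19 alternatives were size factors (RLE), no scaling, no filter, DESeq2 1.42.0, limma 3.58.1 on log2(TPM + 0.5) and log2(TPM + 0.1), a replicate block, leaving out each library, and only the groups compared. The limma fits left out 10 genes with no TPM entry. Same-numbered libraries deviated together at r = -0.0877 to 0.214, over 0.1 in 1 of 15 pairs, so numbers were not taken to pair samples. The members and lists were chosen with earlier results of these data known. Values for every library are given for up to 6 called members per comparison and direction and for 12 members with published functions, and other members by range. Tissue markers covered shoot, root, root hair, trichome, guard cell, vascular and seed. Coding sequences were aligned with Biopython 1.88 (780 pairs).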

Additional observations from a re-analysis of the deposited data

Results flagged for a closer look

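The effect of xpo4-2 differed between the cpr5 and wild-type backgrounds for 7 members by the interaction term of edgeR's quasi-likelihood test, given here as log2 values. For CRK36 the difference was 4.21, adjusted p = 0.00209. For CRK37 it was 4.11, adjusted p = 0.0163, with an adjusted p of 0.0572 without xpo4-2 replicate 2. For CRK13 it was 3.16, adjusted p = 0.0155, and 0.0774 was the highest adjusted p when an xpo4-2 library was left out. For CRK28 it was 2.17, adjusted p = 0.0358, a call that was not kept under every alternative. Its cpr5 and xpo4-2 libraries lay below all those of wild type, while the double mutant overlapped each other genotype. CRK28 overlaps CRK29 by 470 bp on the same strand, so its reads may include those of CRK29. For CRK15 it was 2.04, adjusted p = 0.0489, and the adjusted p was up to 0.173. For CRK18 it was 1.71, adjusted p = 0.00235, and for CRK42 it was -1.13, adjusted p = 0.00689, with an adjusted p of up to 0.135 in the limma fits on TPM. With groups of 2 and 3 libraries, no search for outlying libraries within a group was made.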

How the results depend on the processing

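Over 6 comparisons and 19 alternatives, no called member changed direction in a call: of the member results, 3990 kept their side of the threshold, 194 lost a call and 104 gained one. Counts of members moved beyond 1.5 times as follows. With only the 2 groups compared in the fit, lower members were 4 in xpo4-2 cpr5 over cpr5 (2 as reported), higher members were 9 in cpr5 over wild type (14) and lower members were 0 in xpo4-2 over wild type (2). With no scaling, lower members were 1 in the double mutant over wild type (3), and the medians of all genes and of members there were 0.32 and 1.59. DESeq2 gave 2 lower in cpr5 over wild type (0), 2 higher (0) and 5 lower (2) in xpo4-2 over wild type, and 2 negative interactions (1), and both limma fits gave 0. Over all genes, DESeq2 called 2640 in cpr5 over wild type, 1891 in xpo4-2 over wild type and 3096 interactions, against 1433, 586 and 1880 by edgeR. The cause was not tested. Leaving out 1 library gave 6 to 13 higher and 1 to 3 lower members in the double mutant over cpr5, 12 to 24 and 2 over xpo4-2, and 17 to 23 and 1 to 3 over wild type. It gave 6 to 18 higher and 0 to 1 lower in cpr5 over wild type, 0 to 2 and 0 to 2 in xpo4-2 over wild type, and 2 to 8 positive and 1 to 3 negative interactions. Where it left xpo4-2 with 1 library, that library was assumed to vary like the other groups. With the replicate number as a block, higher members were 10 in the double mutant over cpr5 and 1 was lower in xpo4-2 over wild type (2), and 6 of 11 libraries correlated best with their own number. Depth limits members near the floor, such as CRK37 in wild type, where 1 count is up to 0.0603 CPM.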
